A study of Rattus norvegicus with 6 samples.

Results

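The genes described here are 9 that carry salt and water across the wall of the airspaces of the lung. They are Scnn1a, Scnn1b and Scnn1g for the subunits of the epithelial sodium channel ENaC, Atp1b1 for a beta subunit of the sodium pump, Cftr and Slc12a2 for chloride transport, and the water channels Aqp1, Aqp3 and Aqp4. They were found by gene name among 21210 genes with at least 1 annotated transcript, and they held 31 of the 70376 transcripts in the deposited table. The data were from the lungs of Sprague-Dawley rats that were 7 weeks old at the start. The 3 PF (pulmonary fibrosis) model samples came from rats given 1 intratracheal dose of bleomycin at 7 mg/kg, and the 3 control samples from rats given saline. The lungs were taken on day 28 in both groups, no allele or other agent being named, and 1 rRNA-depleted library was made per rat from whole lung tissue. The instilled drug is known to scar the lung unevenly and only for a time, which limits it as a model.

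Sodium enters the epithelial cells of the alveoli and airways through ENaC on the side facing the air. The sodium pump moves it out on the opposite side, and water follows the salt, in part through aquaporins, which keeps the airspaces free of liquid. Chloride passes through CFTR in either direction, and the cotransporter encoded by Slc12a2 loads cells with the chloride that airway and gland cells secrete.

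Levels are given in FPKM, fragments per kilobase of transcript scaled to the size of the library, as the authors deposited them for each transcript, and the level of a gene is the sum over the transcripts carrying its name. The total by which the FPKM of a library were scaled, implied by the ratio of deposited coverage to FPKM, lay between 42610900 and 48854100. The numbers of reads given below were estimated from coverage. Markers of alveolar type 1 and type 2 cells were high in all 6 libraries, with summed levels of 1077 to 1310 FPKM in control and 1178 to 1389 FPKM in model samples for 8 type 1 genes, and of 4619 to 6393 and 5438 to 7012 FPKM for 8 type 2 genes. The summed level of 5 fibroblast matrix genes was 358.0 to 416.4 FPKM in control and 425.2 to 519.9 FPKM in model samples. These sums did not overlap, and 0 of the 5 passed the call rule. Of the 5, only Col3a1 had groups apart, beside 10.7% of all genes tested. It was at 168.5 ± 13.1 FPKM in control and 208.3 ± 22.3 FPKM in model samples (SD, n = 3 each). Its unadjusted p was 0.0365 and its adjusted p 0.934 (limma, Benjamini-Hochberg). Among all 19203 genes tested with limma, 293 (1.53%) passed the rule of an unadjusted p of at most 0.05 and a group mean at least 2-fold apart. Of these, 132 were higher and 161 lower in the model, or 194 and 138 after rescaling to a common sum, and 2 had a Benjamini-Hochberg adjusted p below 0.05. Genes with names of small RNAs held from 34.2% (model sample 2) to 46.4% (model sample 1) of the sum used for rescaling.

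Of the 9 genes, 8 could be tested, and 0 passed the rule, beside 1.53% of all genes. The group ranges of 0 of the 8 were apart, beside 10.7% of all genes tested. For 3 genes the fitted model level was the higher one and for 5 the lower, with a median log2 fold change of -0.03 beside -0.01 over all genes tested. The adjusted p of every tested gene of the 9 was 0.934 or above (limma, Benjamini-Hochberg), and 0 of the 8 had an unadjusted p at or below 0.05. A change in the number of cells of a type and a change in RNA per cell cannot be told apart in whole tissue.

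**Figure D1:**
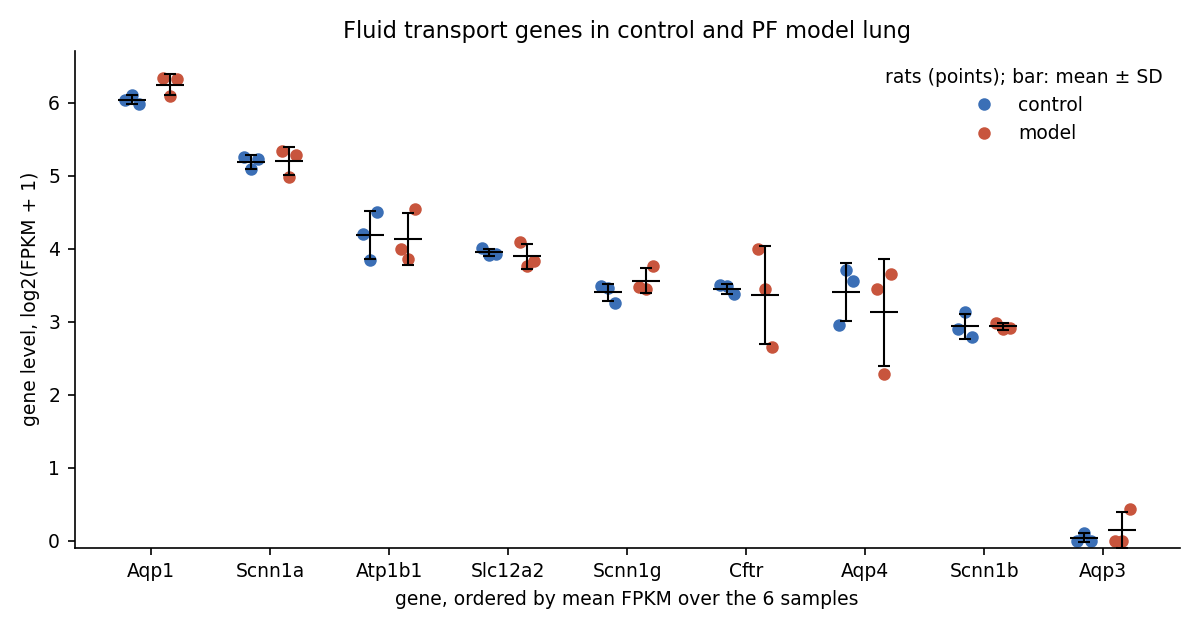
Level of each of the 9 genes on the log2(FPKM + 1) scale, in the order of their mean FPKM, with a point for each of the 3 control and 3 PF model rats and bars for the mean ± SD of each group on that scale. The control and model points overlap for every gene, those of Cftr and Aqp4 are the most spread in the model, and Aqp3 is at or near 0.

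The levels fell in the order Aqp1, Scnn1a, Atp1b1, Slc12a2, Scnn1g, Cftr, Aqp4, Scnn1b and Aqp3 by the mean over the 6 libraries. Aqp1 was above Scnn1a, Scnn1a above Atp1b1, and Scnn1b above Aqp3, with no overlap between the 6 values of each neighbour. Slc12a2 and Scnn1g were just apart, the lowest Slc12a2 level being 12.6 FPKM and the highest Scnn1g level 12.5 FPKM. Atp1b1 and Slc12a2 overlapped and kept their order in 4 of the 6 libraries. Scnn1g, Cftr, Aqp4 and Scnn1b also overlapped with their neighbours, and Scnn1g was above Cftr in only 2 of 6 libraries. The order depends on the transcripts counted. Without those inside introns, described below, Cftr averaged 2.16 FPKM in control and 2.42 FPKM in model samples, which is below Scnn1b. Scnn1g then averaged 7.47 and 7.54 FPKM, which is below Aqp4. Over the 6 libraries, the coefficient of variation was 8.58% for Slc12a2, 9.20% for Scnn1b, 9.39% for Scnn1a, 10.6% for Aqp1 and 12.6% for Scnn1g. It was 23.2% for Atp1b1, 30.7% for Cftr and 34.8% for Aqp4. An estimated 595.6 reads or more per library stood behind each of the 8 tested genes.

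ENaC is built from 3 subunits, of which alpha, encoded by Scnn1a, is needed for the channel to conduct and beta and gamma bring it to the cell surface in number. The alpha subunit had by far the highest RNA level of the 3, and none of them passed the test. Scnn1a (chr4:157836912-157860049, plus strand, in the coordinates of the deposited files, whose build is not given in the sources used here) was at 37.1, 32.9 and 36.3 FPKM in control samples 1 to 3 and at 39.4, 30.4 and 37.8 FPKM in model samples 1 to 3. The control range lay within the model range. The group means were 35.5 ± 2.23 and 35.9 ± 4.79 FPKM (SD, n = 3 each), a log2 fold change of 0.01 ± 0.11 (SE), with a 95% interval of -0.27 to 0.28.

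Scnn1b, encoding the beta subunit (chr1:191829555-191884298, plus strand), was at 6.43, 7.74 and 5.92 FPKM in control and at 6.93, 6.48 and 6.54 FPKM in model samples. All 3 model values lay between the lowest and the highest control value. The log2 fold change was -0.00200 ± 0.12 (SE), with a 95% interval of -0.29 to 0.28. Scnn1g, encoding the gamma subunit, lies close by on the same chromosome and strand (chr1:191704311-191738268). It was at 10.2, 9.97 and 8.58 FPKM in control and at 10.1, 9.90 and 12.5 FPKM in model samples, so that model sample 3 was the highest of the 6 and the other 5 lay close together. Its log2 fold change was 0.16 ± 0.12 (SE; 95% interval -0.13 to 0.45). Without the intronic transcript described below, the Scnn1g level was 7.47 ± 0.703 FPKM in control and 7.54 ± 1.06 FPKM in model samples (SD, n = 3 each), a log2 fold change of 0.01.

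The ratio of subunits within a library does not depend on how the library was scaled. The level of Scnn1b relative to Scnn1a was 0.190 ± 0.0390 in control and 0.187 ± 0.0221 in model samples (SD, n = 3 each), and Scnn1g relative to Scnn1a was at 0.271 ± 0.0334 and 0.304 ± 0.0421. The exact permutation test, two-sided, gave p = 1.0 for the former ratio and p = 0.3 for the latter, where 0.1 is the smallest p possible and both are among 11 tests of ratios and shares. The 11 p-values adjusted by Benjamini-Hochberg were all 0.733 or above (exact permutation tests).

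The beta subunit of the sodium pump is needed for the pump to reach the cell membrane. Atp1b1 (chr13:82737159-82758004, minus strand) was at 17.3, 13.4 and 21.7 FPKM in control and at 15.0, 13.5 and 22.2 FPKM in model samples. The libraries spread alike in both groups, each group holding a sample near 13 and a sample near 22 FPKM. The means were 17.5 ± 4.18 and 16.9 ± 4.68 FPKM (SD, n = 3 each), and the log2 fold change of -0.05 ± 0.23 (SE) had a 95% interval of -0.61 to 0.50.

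CFTR is a chloride channel gated by cyclic AMP signalling, and its loss causes cystic fibrosis. Cftr (chr4:42692836-42860676, plus strand) was at 10.3, 10.2 and 9.37 FPKM in the control samples. In the model samples it was at 15.0, 9.87 and 5.30 FPKM, so the highest and the lowest of the 6 values were both from model samples and the control values lay between them. The means were 9.95 ± 0.506 and 10.04 ± 4.83 FPKM (SD, n = 3 each). The log2 fold change was -0.09 ± 0.32 (SE; 95% interval -0.85 to 0.67), and it ran from -0.40 without model sample 1 to 0.27 without model sample 3.

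Most of the FPKM summed for Cftr came from 6 short assembled pieces inside its introns, which held 68.2% to 80.7% of the FPKM of the gene but 11.0% to 20.1% of its estimated reads. The only annotated Cftr transcript, ENSRNOT00000085043 with 28 exons and 6844 bases, was at 2.10, 1.97 and 2.42 FPKM in control and at 3.10, 2.47 and 1.68 FPKM in model samples. Its model range, too, enclosed the control range. The means were 2.16 ± 0.231 and 2.42 ± 0.710 FPKM (SD, n = 3 each), with a log2 fold change of 0.09 ± 0.19 (SE). The sign for Cftr therefore differed with the transcripts counted, and it passed the test with neither. On the FPKM scale, the annotated transcript of Cftr was below the summed level of each ENaC subunit, assembled transcripts included, in all 6 libraries. The summed Cftr level was above that of Scnn1b in 5 of 6. Against the annotated Scnn1g transcript alone, that of Cftr was higher in model sample 2 only, at 2.47 beside 2.40 FPKM.

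Slc12a2, encoding the cotransporter NKCC1 that carries sodium, potassium and chloride into the cell, was the steadiest of the 8 tested genes. Its level (chr18:52917124-52985261, plus strand) was 15.0, 14.1 and 14.1 FPKM in control and 16.0, 12.6 and 13.2 FPKM in model samples. The control range again lay inside the model range. The means were 14.4 ± 0.521 and 13.9 ± 1.80 FPKM (SD, n = 3 each), and the log2 fold change was -0.05 ± 0.10 (SE; 95% interval -0.31 to 0.20).

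Aquaporins are channels for water, and each has its own cells. AQP1 is known from endothelium and red cells, AQP3 from basal cells of the airways, and AQP4 from the basolateral side of airway and alveolar epithelium. Aqp1 (chr4:85551502-85569360, plus strand) was at 64.6, 67.8 and 62.2 FPKM in control and at 79.5, 66.9 and 79.0 FPKM in model samples. Model samples 1 and 3 were above every control sample, and model sample 2 lay within the control range. The means were 64.9 ± 2.80 and 75.2 ± 7.13 FPKM (SD, n = 3 each), a log2 fold change of 0.21 ± 0.09 (SE).

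The 95% interval of the Aqp1 change ran from 0.988-fold to 1.34-fold on the FPKM + 1 scale, with an unadjusted p of 0.0648 and a Benjamini-Hochberg adjusted p of 0.934 (limma). The exact permutation test for Aqp1 alone gave p = 0.2, two-sided. The unadjusted p was below 0.05 under 3 of 16 alternatives, at 0.0140 without model sample 2 (log2 fold change 0.29), 0.0283 after rescaling to a common sum (0.29) and 0.0441 after median ratio scaling (0.21). The adjusted p under these was 0.819, 0.908 and 0.918 (limma, Benjamini-Hochberg), and the difference stayed under 2-fold. Rescaling to a common sum also moved the median log2 fold change of all genes tested from -0.01 to 0.05. The summed level of 4 endothelial markers in the table was 276.3 to 396.3 FPKM in control and 320.6 to 359.6 FPKM in model samples, and that of the 4 of 6 red cell markers in the table was 218.3 to 583.2 and 237.7 to 582.9 FPKM. Both lists overlapped between the groups.

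Aqp3 (chr5:57423734-57429245, minus strand) was above 0 in 2 of the 6 libraries only, at 0.0774 FPKM in control sample 2 and 0.353 FPKM in model sample 3, and listed at 0 in the other 4. It was therefore not tested, and at most an estimated 29.1 reads stood behind a value. Of the 5 airway secretory and basal markers in the table, 3 were also highest in model sample 3. They were the keratins Krt5, at 0.577 FPKM against 0 to 0.0962 FPKM in the other 5 libraries, and Krt15, at 1.24 FPKM against 0 to 0.228 FPKM, and the secretory gene Scgb3a1, at 47.0 FPKM against 1.46 to 6.45 FPKM. The other 2, the secretory genes Scgb1a1 and Scgb3a2, were highest in control sample 3, at 7693 and 214.4 FPKM against 6140 and 191.0 FPKM in model sample 3. The part of airway tissue in the Aqp3 value was not tested.

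Aqp4 (chr18:6765945-6782996, minus strand) varied most among the 8 tested genes. It was at 6.73, 12.0 and 10.7 FPKM in control and at 9.91, 3.88 and 11.5 FPKM in model samples. Model sample 2 was the lowest of the 6, and the other 5 values of both groups were mixed. The means were 9.82 ± 2.75 and 8.44 ± 4.04 FPKM (SD, n = 3 each), a log2 fold change of -0.27 ± 0.39 (SE; 95% interval -1.21 to 0.66), which was 0.15 without model sample 2.

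**Figure D2:**
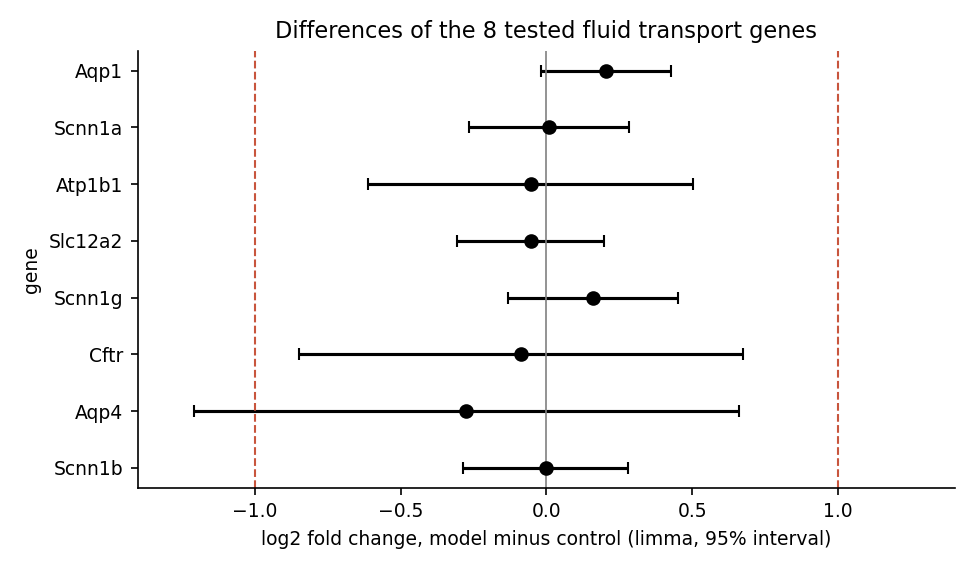
Log2 fold change, model minus control, of the 8 tested genes on the log2(FPKM + 1) scale, as points with 95% intervals from limma, and dashed lines at the 2-fold differences of -1 and 1. Every interval includes 0, and those of Cftr (-0.85 to 0.67) and Aqp4 (-1.21 to 0.66) are the widest.

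The intervals show how large a change these 6 libraries could have missed. For Scnn1a, Scnn1b and Slc12a2 both ends of the interval lay within about 0.31 log2 units of 0, whereas for Cftr and Aqp4 both reached beyond 0.6. For Atp1b1 the lower end was at -0.61 and the upper end at 0.50.

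The transcripts behind each level differed in kind. Of the 31 transcripts, 15 carried an Ensembl identifier, 7 were assembled forms that share a splice junction with the annotated gene, and 9 were assembled inside an intron, 7 of these without a strand. Of the 30 tested, 1 passed the rule, beside 2.98% of all transcripts tested, and 1 had groups apart, beside 10.4% of all transcripts tested. These were 2 different transcripts, an isoform of Aqp4 and an intronic transcript of Scnn1g, and they were also the only 2 of the 30 with an unadjusted p at or below 0.05 (limma).

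**Figure D3:**
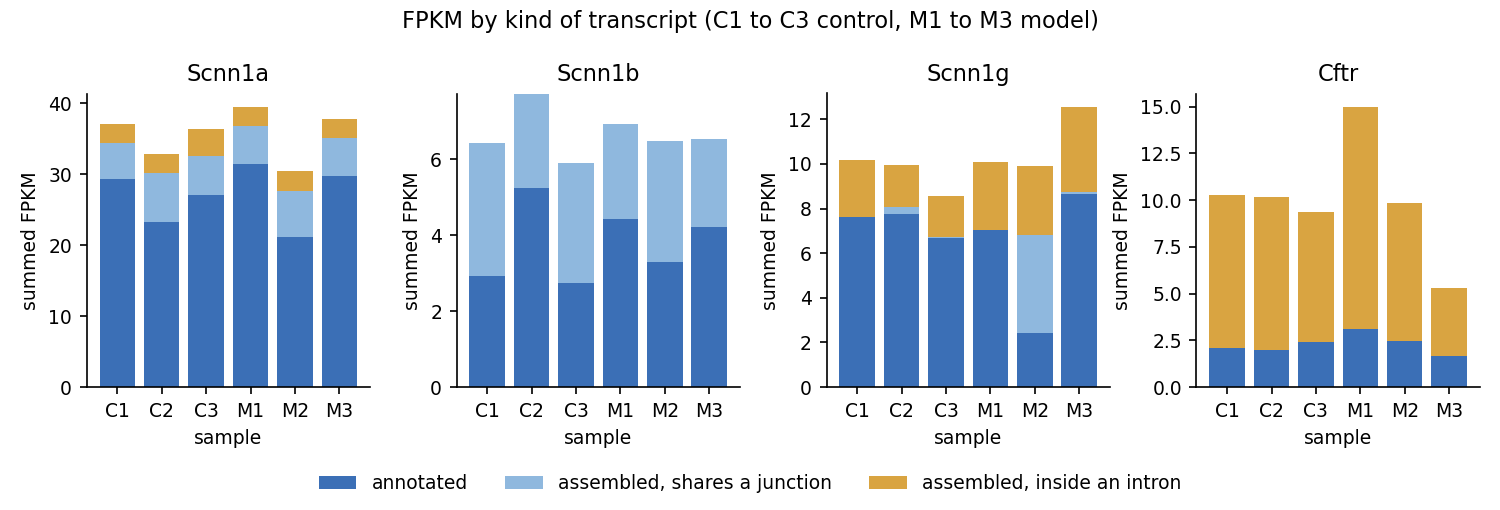
Summed FPKM of Scnn1a, Scnn1b, Scnn1g and Cftr in control samples C1 to C3 and model samples M1 to M3, each bar divided into annotated transcripts, assembled transcripts that share a splice junction and assembled transcripts inside an intron. Intronic transcripts hold 68.2% to 80.7% of the Cftr bars, and a junction-sharing form of Scnn1g is large in M2 alone, at 4.42 FPKM.

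The annotated Scnn1a transcript ENSRNOT00000067271, with 12 exons, held 69.8% to 79.8% of the FPKM of the gene. The assembled forms MSTRG.26775.3, of 7 exons, and MSTRG.26775.2, of 9 exons, began further downstream and averaged 4.33 and 1.43 FPKM over the 6 libraries. Another transcript under the same gene name, MSTRG.26776.1, was a single exon of 5414 bases on the opposite strand within an intron, with a mean of 2.86 FPKM. Scnn1b was nearly shared between the annotated ENSRNOT00000067138 of 13 exons and the assembled MSTRG.2871.2 of 10 exons. The former was at 2.93, 5.24 and 2.75 FPKM in control and at 4.43, 3.30 and 4.22 FPKM in model samples, or 45.6% to 67.8% of the gene, with the groups mixed.

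The annotated Scnn1g transcript ENSRNOT00000024057, with 13 exons and 3049 bases, was at 7.61, 7.74 and 6.67 FPKM in control and at 7.03, 2.40 and 8.66 FPKM in model samples. The assembled form MSTRG.2869.2, also of 13 exons but of 3293 bases, was at 0, 0.347 and 0.0332 FPKM in control and at 0, 4.42 and 0.0918 FPKM in model samples. In model sample 2 the second form was thus assigned most of the spliced Scnn1g level, and in the other 5 libraries nearly none of it. Without the intronic transcript, the annotated form held 35.2% of Scnn1g in model sample 2 and 95.7% to 100% in the 5 other libraries (exact permutation p = 0.7, two-sided).

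The intronic Scnn1g transcript MSTRG.2870.1 (chr1:191734496-191734793, 1 exon of 298 bases with no strand) was at 2.57, 1.88 and 1.87 FPKM in control and at 3.05, 3.07 and 3.78 FPKM in model samples. All 3 model values were above all 3 control values. The log2 fold change was 0.47 ± 0.15 (SE), with an unadjusted p of 0.0222 and an adjusted p of 0.945 (limma, Benjamini-Hochberg), and the means were less than 2-fold apart, so it did not pass the rule. It held 18.9% to 31.1% of the FPKM summed for Scnn1g but 2.22% to 4.07% of the estimated reads. With it in the sum, the share of ENSRNOT00000024057 was 74.7% to 77.8% in control and 24.3% to 69.7% in model samples, apart at the smallest possible exact permutation p of 0.1, which adjusted over the 11 tests was 0.733.

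Atp1b1 was mainly ENSRNOT00000003932, with 6 exons and 68.6% to 84.3% of the gene. A second, longer form, MSTRG.10257.2 of 6608 bases, was at 2.64, 3.04 and 6.65 FPKM in control and at 3.32, 3.54 and 3.47 FPKM in model samples, so control sample 3 stood above the other 5. Slc12a2 was ENSRNOT00000021921, with 27 exons, at 75.8% to 86.7%, and the rest was MSTRG.16787.1, with 26 exons and a mean of 2.45 FPKM. Aqp1 was ENSRNOT00000015692 at 95.2% to 99.0%, and ENSRNOT00000087191 and the intronic MSTRG.25875.1 had means of 1.27 and 0.801 FPKM. The 6 intronic Cftr transcripts, each of 1 exon, had means between 0.733 and 2.26 FPKM over the 6 libraries.

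The 5 Aqp4 transcripts began at 3 positions, and the FPKM assigned to each position differed widely between libraries. Along the minus strand the most upstream start was that of ENSRNOT00000090320, the next, 239 bases on, that of ENSRNOT00000068150, and the last, a further 916 bases on, that of ENSRNOT00000077606, ENSRNOT00000048109 and MSTRG.16218.2. RefSeq lists 2 Aqp4 starts in its own build, GRCr8, that are likewise 916 bases apart. This is the spacing of the second and the last deposited start. In the window labels, upstream and downstream refer to the RefSeq pair. No window is shown for the most upstream deposited start, that of ENSRNOT00000090320. The 250 bases before each of these RefSeq starts are shown because the Aqp4 transcripts that differed between libraries are read from different starts. Both run 5′ to 3′ on the minus strand, and capitals mark the CCAAT motif.

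Aqp4 upstream start, chr18:6798843-6799092: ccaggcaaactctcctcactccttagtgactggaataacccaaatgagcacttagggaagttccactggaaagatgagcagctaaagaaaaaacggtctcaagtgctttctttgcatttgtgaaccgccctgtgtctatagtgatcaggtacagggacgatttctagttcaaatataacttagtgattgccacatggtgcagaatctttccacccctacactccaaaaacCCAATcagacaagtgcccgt
Aqp4 downstream start, chr18:6797927-6798176: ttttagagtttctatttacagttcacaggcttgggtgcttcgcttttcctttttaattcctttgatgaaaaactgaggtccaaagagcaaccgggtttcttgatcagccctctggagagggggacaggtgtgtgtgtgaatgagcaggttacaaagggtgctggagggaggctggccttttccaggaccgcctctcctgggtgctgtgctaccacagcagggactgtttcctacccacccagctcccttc

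The motifs CCAAT and TATAAA were searched on both strands of these windows. The upstream window holds CCAAT 20 bases before the start, and the downstream window holds neither motif. CCAAT occurred in 34.0% and TATAAA in 12.9% of 33469 RefSeq rat promoters over the same 250 bases. The matches describe the letters in these windows and nothing about use of the starts.

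ENSRNOT00000068150, from the middle start, was the Aqp4 transcript that passed the rule. It was at 4.73, 9.12 and 3.43 FPKM in control and at 0.844, 1.35 and 3.65 FPKM in model samples. Model samples 1 and 2 were below every control sample, while model sample 3 lay above control sample 3, so the groups overlapped. The means were 5.76 ± 2.98 and 1.95 ± 1.49 FPKM (SD, n = 3 each), with a log2 ratio of the means of -1.57. It fell by 1.23 ± 0.46 (SE) on the log2(FPKM + 1) scale, with an unadjusted p of 0.0376 and an adjusted p of 0.945 (limma, Benjamini-Hochberg).

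The call was lost without any 1 of 4 libraries. The unadjusted p for ENSRNOT00000068150 was 0.0683 without control sample 1, 0.105 without control sample 2, 0.107 without model sample 1 and 0.0988 without model sample 2 (limma). It was 0.0742 with a replicate block, and the exact permutation p for this transcript alone was 0.2, two-sided.

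The FPKM assigned to the neighbouring start was high in a single library. Starts were not measured, and a different division of reads among these overlapping transcripts was not tested. ENSRNOT00000090320, from the most upstream start, was at 7.57 FPKM in model sample 1 and at 0.00575 to 0.0833 FPKM in the other 5 libraries. In model sample 1 it thus stood where ENSRNOT00000068150, at 0.844 FPKM, was lowest. Counted together, the 2 upstream starts held 71.5%, 76.1% and 32.1% of the Aqp4 FPKM in control and 84.9%, 35.0% and 31.6% in model samples, so each group held both high and low shares (exact permutation p = 0.9, two-sided). The 3 transcripts from the downstream start summed to 1.91, 2.87 and 7.30 FPKM in control and to 1.50, 2.52 and 7.89 FPKM in model samples. Sample 3 of each group was the highest, and the groups overlapped (exact permutation p = 0.8, two-sided).

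**Figure D4:**
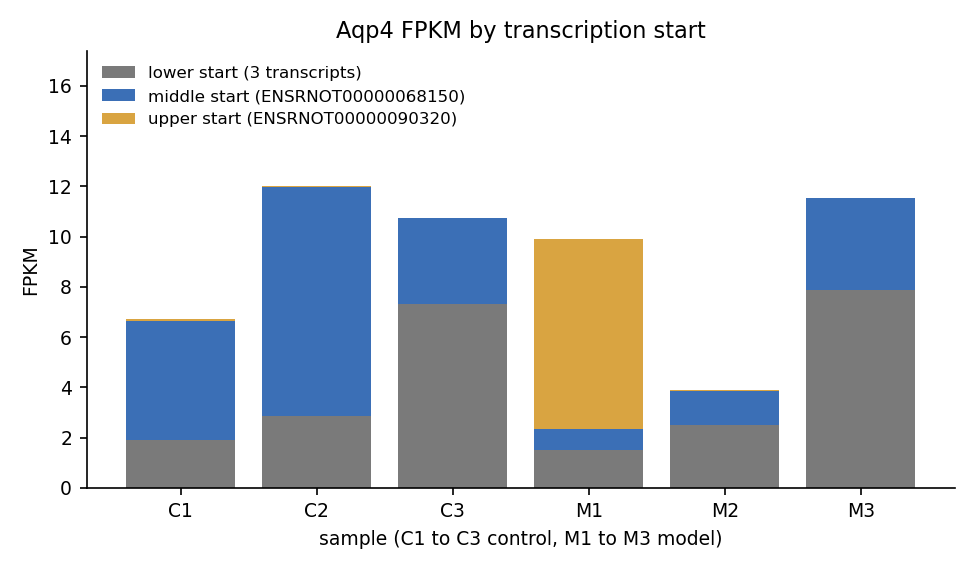
FPKM of Aqp4 in control samples C1 to C3 and model samples M1 to M3, each bar divided by the start its transcripts are read from, where upper is the most upstream on the minus strand and lower the most downstream. The part from the upper start is visible mainly in M1, at 7.57 FPKM, and the part from the middle start is smallest in M1 and M2, at 0.844 and 1.35 FPKM.

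The 4 lists of genes that work with these channels and pumps were read from the same limma fit, with 59 names, of which 56 were in the table and tested. Of the 56, 0 passed the rule, 1 had an unadjusted p at or below 0.05, 27 were fitted higher and 29 lower, and 6 had groups apart, beside 10.7% of all genes. The 10 other sodium pump subunits and partners had log2 fold changes from -0.19 to 0.27. Among them, the beta subunit Atp1b3 was at 53.6 ± 6.19 FPKM in control and 47.8 ± 2.12 FPKM in model samples (SD, n = 3 each).

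Of 19 regulators of ENaC, 18 were in the table, 12 fitted higher and 6 lower, with a median log2 fold change of 0.10. The ubiquitin ligases Nedd4 and Nedd4l, of which the latter takes ENaC from the membrane, were among the 3 highest, at 139.7 and 145.0 FPKM and at 62.1 and 61.9 FPKM on average in control and model samples. Spint1, an inhibitor of serine proteases of the kind that cleave and open ENaC, was at 17.6, 17.2 and 17.9 FPKM in control and at 22.7, 19.3 and 20.6 FPKM in model samples. Every model sample was above every control sample. The log2 fold change was 0.23 ± 0.08 (SE), with an unadjusted p of 0.0276 and an adjusted p of 0.934 (limma, Benjamini-Hochberg).

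Spint2, which encodes a related inhibitor, was at 60.9 ± 0.762 FPKM in control and 66.5 ± 2.04 FPKM in model samples (SD, n = 3 each), also with the groups apart and with an unadjusted p of 0.0973 (limma). The protease gene Furin, whose product cleaves ENaC subunits on their way to the membrane, was outside the naming rule and, like the next 3 genes, is given because its groups were apart. It was at 0.0641, 5.13 and 2.96 FPKM in control and at 6.49, 5.32 and 8.87 FPKM in model samples, the lowest model sample being just above the highest control sample. Its log2 fold change was 1.39 ± 0.62 (SE), with an unadjusted p of 0.0638 (limma). The kinase gene Stk39 was also higher, at 10.1 ± 0.196 FPKM in control and 12.7 ± 2.46 FPKM in model samples. The anion exchanger gene Slc26a6 was lower, at 2.13 ± 0.0329 and 1.83 ± 0.0734 FPKM, and so was the sodium-proton exchanger gene Slc9a3, at 0.109 ± 0.0259 and 0.0480 ± 0.0175 FPKM (SD, n = 3 each). The unadjusted p of these 3 was 0.0819, 0.217 and 0.110 (limma).

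Of 22 other genes of chloride, bicarbonate and potassium transport, 8 were fitted higher and 14 lower, with a median log2 fold change of -0.02. The potassium channel gene Kcnq1, whose product returns potassium to the outside of the cell, was the highest at 29.9 FPKM on average in both groups. Kcnj15, another potassium channel gene, averaged 17.1 and 13.7 FPKM, and Slc9a3r1, encoding a scaffold that binds CFTR, 14.8 and 16.3 FPKM in control and model samples. None of these passed the test. Among the other aquaporins, Aqp5, the water channel of the alveolar type 1 cell, was at 120.1, 98.2 and 91.8 FPKM in control and at 125.2, 116.0 and 128.6 FPKM in model samples. Control sample 1 was above model sample 2, so the groups overlapped, and the log2 fold change was 0.26 with an adjusted p of 0.934 (limma, Benjamini-Hochberg). The 5 other aquaporins tested were below 1 FPKM in every library.

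**Figure D5:**
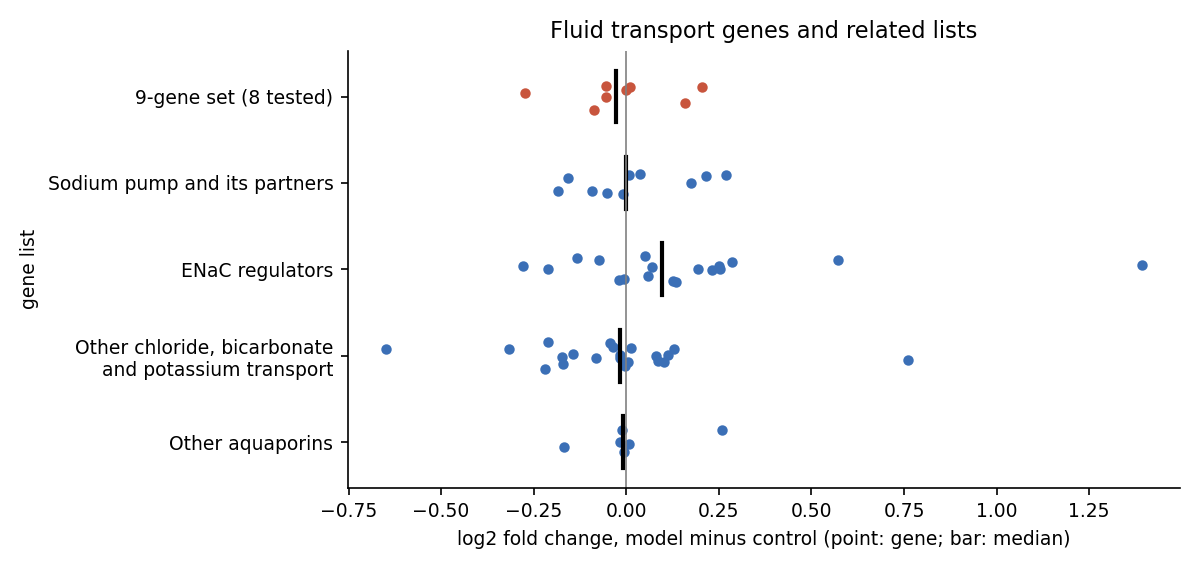
Log2 fold change, model minus control, on the log2(FPKM + 1) scale, with a point for each tested gene of the 4 lists and of the 9 genes, and a bar for the median of each. None of the 56 list genes passed the call rule, and the 4 list medians lie between -0.02 and 0.10.

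The summed markers of other cells that could carry these genes overlapped between the groups for each of the 5 lists that follow. The ionocyte factor Foxi1, which marks the rare airway cells rich in CFTR, was at or below 0.0187 FPKM in every library. The summed level of the 3 of 5 ionocyte markers in the table was 0.212 to 0.343 FPKM in control and 0.204 to 0.508 FPKM in model samples. Of the ciliated cell markers, 3 of 4 were in the table and summed to 10.0 to 16.8 and 8.76 to 13.6 FPKM, 5 of 6 airway secretory and basal markers to 4615 to 7914 and 4161 to 6380 FPKM, and 4 of 5 leukocyte markers to 49.7 to 66.4 and 36.8 to 59.4 FPKM. Cardiac muscle markers, of the kind found in the wall of pulmonary veins, summed to 6.70 to 11.4 FPKM in control and 6.54 to 26.0 FPKM in model samples, being highest in model sample 3. Of the 4 tested, 1, Nppa, passed the call rule with groups apart, beside 1.53% and 10.7% of all genes tested. It was near 0, at 0.0357 ± 0.0619 FPKM in control and 0.157 ± 0.00914 FPKM in model samples (SD, n = 3 each). Nppa was at 0.107 FPKM in control sample 1 and listed at 0 in control samples 2 and 3. It thus met the filter for testing only through the model samples, and its call gives no result on cardiac muscle. On the log2(FPKM + 1) scale its fold change was 0.16. Its unadjusted p was 0.0258 and its adjusted p 0.934 (limma, Benjamini-Hochberg). The part of the cells of these lists in the levels above was not tested.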

How the data were processed

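Lung RNA freed of rRNA was made into 1 library per rat and read in pairs of 150 bases. Reads were cleaned by the authors (Cutadapt), mapped (Bowtie2 and Tophat2 in the methods, HISAT2 in the submitters' processing notes) and assembled into transcripts (StringTie). They deposited FPKM and per-base coverage for each transcript, and raw counts of back-splice reads for circRNAs. The rat build is not given in the sources used here.

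Gene FPKM were the plain sum of the deposited transcript FPKM. Features above 0 FPKM in at least 3 of 6 samples were tested with limma 3.58.1 (trend) in R 4.3.3 on log2(FPKM + 1), two-sided, with Benjamini-Hochberg adjustment over all features. Fold changes on this scale understate the change of low genes. The call rule took features with p at or below 0.05, not adjusted, whose group means differed by 1 log2 unit or more, after the thresholds in the study's methods. The methods also describe a correction for multiple testing by FDR, so calls by adjusted p were counted beside the rule. Single ratios, shares and values were compared with exact permutation tests, for which 3 against 3 rats allow no p below 0.1. Reads were estimated as deposited coverage times length divided by 150, and they cover counting error only. Of the tests, only the limma fit of genes was checked on simulated data, with added changes larger than 2-fold. The check covered neither smaller changes nor transcripts nor the permutation tests. Promoter sequences are from RefSeq (GRCr8), whose table held 7 of the 9 genes. Tables were handled with Python 3.11.15 and pandas 2.3.3.

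The members and lists were chosen with earlier results of these data known. All 9 genes are named, with transcripts of at least 0.5 FPKM or 10% of their gene, and from each list the genes called, those with p of at most 0.05 and the 3 with the highest mean. Alternatives were other pseudocounts, filters, scalings, sums over transcripts, a replicate block, no variance trend and leaving out each sample. The sum without intronic transcripts was chosen after seeing the data. The deviations of same-numbered control and model samples from their group means had correlations of 0.07, 0.03 and -0.08. With 3 rats a group, these cannot decide whether such samples were handled together. 1 of the 11 ratios and shares is not reported here.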

Additional observations from a re-analysis of the deposited data

How the results depend on the processing

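Under 16 alternatives, 0 of 128 values of the 8 tested genes passed the call rule and 21 changed sign, all for genes with intervals that include 0. The lowest adjusted p was 0.819. Over all genes, 293 calls became 80 with a mean FPKM of at least 1, 519 with annotated transcripts only and 302 to 396 without single libraries. The 1934 transcript calls became 1066 with a mean FPKM of at least 1 and 2084 to 2498 without single libraries. With a replicate block, 311 genes and 1943 transcripts were called. With the block, ENSRNOT00000068150 of Aqp4 was no longer called (unadjusted p = 0.0742, limma) and the 8 genes stayed uncalled. The labels and methods do not say whether same-numbered samples were handled together.

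The log2 fold change of Scnn1b was 0.077 after rescaling to TPM, 0.000719 after median ratio scaling and 0.13 with annotated transcripts only. That of Scnn1g was -0.38 with annotated transcripts only. That of Cftr was 0.066 with a sum weighted by length and 0.094 both with annotated transcripts only and without intronic transcripts. TPM gave 0.026 for both Atp1b1 and Slc12a2. The difference in log2 ratio of Scnn1b to Scnn1a was 0.15, and of Scnn1g to Scnn1a -0.51, with annotated transcripts only, and the latter was -0.019 without intronic transcripts. Without single libraries, the log2 fold change ranged from -0.061 to 0.12 for Scnn1a, -0.075 to 0.093 for Scnn1b, -0.40 to 0.27 for Cftr, -0.26 to 0.11 for Atp1b1, -0.53 to 0.15 for Aqp4 and -0.15 to 0.011 for Slc12a2, and the difference in log2 ratio of Scnn1b to Scnn1a from -0.11 to 0.15. The cause was not tested.

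With 3 rats a group, the 95% interval for Aqp4 reached beyond a 2-fold decrease, so a decrease of that size lies within it. FPKM depend on how StringTie divides reads among overlapping transcripts.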

Other observations

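Only 1 of 5216 circRNAs in the deposited table was named for one of the 9 genes. It was a circle of 1 exon of Scnn1b (chr1:191866865-191867132), with 1 back-splice read in control sample 1 and 0 in the other 5 libraries, which held 2037 to 2964 back-splice reads in all.

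The gene most like each of the 8 over the 6 libraries, by Pearson r of log2(FPKM + 1) among 13889 genes, was Cdipt for Scnn1a (0.988), Ing4 for Scnn1b (0.991), AABR07028499.1 for Scnn1g (0.994), Slc18a2 for Cftr (0.985), Cct7 for Atp1b1 (0.994), AC114233.2 for Aqp1 (0.991), Il17ra for Aqp4 (0.986) and AABR07003187.1 for Slc12a2 (0.996). With 6 points that share their libraries, between 57 and 310 genes had an r above 0.9 with each, so these are descriptions.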
